A study of Homo sapiens with 7 samples.

Results

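Upstream antisense polyadenylation sites (PASs) are 3′ ends of RNAs that leave a promoter in the direction opposite to the gene. All sites that the deposited tables class as upstream antisense of a RefSeq transcription start were taken, each counted once. There were 4526 such sites, at the promoters of 2874 genes, among 76786 PASs in all. The first table listed 2520 of them, the table of the double knockdown (KD) 2815 and that of batch 2 2007, and 679 stood in all 3 tables.

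The data are numbers of PAS-supporting reads from HEK293 cells, an established human embryonic kidney line, transfected with siRNAs. The first table holds 1 library each of cells given a control siRNA (siCtrl) or siRNAs against the nuclear poly(A) polymerases Star-PAP (siStar-PAP), PAPα (siPAPα) or PAPγ (siPAPγ). A further table sets cells given both siRNAs against PAPα and PAPγ (siPAPα+γ) against a siCtrl column, whose reads were identical to those of the first table at 1572 of 1576 shared upstream antisense sites, so that these columns are 1 library. Batch 2 is a second siCtrl and a second siStar-PAP library made with the 3′READS+ protocol in place of 3′READS. Both protocols sequence the strand and position at which an RNA was cleaved and polyadenylated. Libraries had from 2362875 reads in their table, in siStar-PAP of batch 2, up to 16245257 in siPAPα. With 1 library per condition and table, a difference there has no replicate check, and its interval covers counting error only. No source says whether the libraries of the 2 batches came from separate cultures, so that p-values over them may measure technical spread.

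Reads of the targeted genes were looked at first. TUT1, which encodes Star-PAP, had 83 reads in the first siCtrl and 2 in its siStar-PAP, and 6 and 4 reads in batch 2, too few to show a change. PAPOLA (PAPα) had 71 reads in siCtrl and 12 in siPAPα, and 78 and 8 in the double KD table. PAPOLG (PAPγ) had 5 reads in siCtrl, 15 in the library labelled siPAPγ and 6 in that labelled siPAPα+γ. Its KD thus could not be checked from reads at this depth. The study reports effective KD of the individual PAPs by immunoblot. The HEK293 genes VIM, NEFL, INA, NEFM and PAX2 all had reads in both siCtrl libraries, and ALB, PTPRC, HBB and CD3E, genes of other tissues, were not listed.

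Most mammalian promoters fire in both directions. The RNA made upstream and antisense is capped, usually ends early at poly(A) signals close to the promoter, and is then removed by the nuclear exosome, so that its steady-state level is low. U1 snRNP binding sites, which keep RNA polymerase from ending at such signals, are common in the sense direction and sparse in the antisense direction. Canonical PAPs and the nuclear poly(A) binding protein PABPN1 are known both to add the tail and to take part in decay of nuclear RNAs of this kind. Star-PAP is a noncanonical PAP that acts on selected pre-mRNAs.

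The sequence in front of the site is part of what the cleavage machinery reads, and it is shown here for the sites on which the results turn. Each run is 30 bases of hg19, 5′ to 3′ on the strand of the antisense RNA, and ends 6 nt before the site. Capitals mark the poly(A) signal. The first 3 sites had many reads in siCtrl, the next 4 passed the test for siStar-PAP, the next 2 were among those with the lowest ratio to siCtrl, and the last 3 had the highest ratios in siPAPα+γ.
RABGEF1 (chr7:66204926-66204955, minus strand): ccagaagtgaAATAAAttagccagtgtcac
LCOR (chr10:98590395-98590424, minus strand): ttcagtttcaAATAAAtgaacaacgtgtaa
DDX6 (chr11:118662211-118662240, plus strand): tcgcccctccaaAGTAAAaatcgggagttg
VRK2 (chr2:58270178-58270207, minus strand): actaAATAAAaatggcaacaggagcaggta
SAMD4B (chr19:39832419-39832448, minus strand): aaggaggctgtcAATAAAcgggagttgttg
OPN3 (chr1:241805091-241805120, plus strand): tacagtaagttctcAATAAAtagtaatttg
TUBGCP6 (chr22:50683574-50683603, plus strand): gaggccgagcgtgctcAGTAAAggaggcag
RABGGTB (chr1:76251689-76251718, minus strand): tctagaaacagttttaaataatatttaaat
COPS7A (chr12:6833023-6833052, minus strand): taaatgctttatttcAATAAAactttatta
ETF1 (chr5:137879897-137879926, plus strand): tttttgtAATAAAataattacacaaatgct
OCLN (chr5:68786352-68786381, minus strand): ggtttttaaATTAAActttttatcatttta
CHORDC1 (chr11:89959208-89959237, plus strand): ttgtttttgcctAATAAAcctcaccctatc

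Of these 12 sites, 8 had AATAAA, 1 had ATTAAA, 2 had the variant AGTAAA and that of RABGGTB had none of the hexamers searched. Over all upstream antisense sites, the 40 nt in front of the site held AATAAA at 43.4% (95% interval 41.9 to 44.8), against 45.1% of all PASs. ATTAAA without AATAAA stood at 14.6%, against 15.7% of all PASs, and 1 of 10 variants (the hexamer AGTAAA, the hexamer TATAAA, the hexamer CATAAA, the hexamer GATAAA, the hexamer AATATA, the hexamer AATACA, the hexamer AATAGA, the hexamer ACTAAA, the hexamer AAGAAA or the hexamer AATGAA) without either at 20.9%, against 20.4%. None of these was found at 21.1%, against 18.7% of all PASs. Only the strand of the RNA was searched. The ATA trimer, as DNA the AUA element known for Star-PAP binding, stood between 100 and 41 nt before the site at 51.7% of upstream antisense sites and at 59.0% of all PASs. GC content of the 201 nt around the site had a median of 40.3%, against 35.8% at intronic sites and at sites in 3′-most exons.

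The sites were chosen as upstream of a transcription start, so that their closeness to the promoter was given by the choice. Distance was taken to the nearest annotated start that the site lay upstream of, which may not be the RefSeq start behind the class. For 4470 a start of the gene was found in the GENCODE annotation, and of these 99.0% lay between 0 and 4000 nt upstream of it, at a median distance of 1058 nt (25th to 75th percentile, 552 to 1956). On the strand of the antisense RNA, 2645 sites (58.4%) lay in no annotated transcript, 1265 lay inside one and 616 were within 50 nt of an annotated 3′ end. Where there was a transcript, it was a long noncoding RNA (lncRNA) at 1511 sites and protein-coding at 309, as at a bidirectional promoter of 2 coding genes. The gene at whose promoter the site lay was protein-coding for 95.6% of sites. The share of sites with AATAAA went up with distance, from 37.4% at under 500 nt to 51.0% at 2000 nt and more, and the median GC content went down from 43.8% to 38.3%.

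Levels were low and uneven. In siCtrl of the first table, 890 of the 2520 sites had no read, the median was 0.370 reads per 1000000 reads of the table (RPM), which corresponds to 3 reads, and 87 sites reached 10 RPM. The 10 sites with the most reads held 29.5% of all upstream antisense reads of that library. The highest there was the site 800 nt upstream of RABGEF1, a Rab5 exchange factor, with 242 RPM in siCtrl, 273 in siPAPα, 216 in siPAPγ, 311 in siStar-PAP, 304 in siPAPα+γ, and 511 and 539 RPM in siCtrl and siStar-PAP of batch 2. The site 1622 nt upstream of LCOR, a nuclear receptor corepressor, had 204 RPM in siCtrl, 244 in siPAPα, 217 in siPAPγ, 237 in siStar-PAP and 292 in siPAPα+γ, and 95.1 and 40.6 RPM in siCtrl and siStar-PAP of batch 2. These 2 sites were not lower in siStar-PAP of the first table, and that of LCOR was lower in batch 2 (0.427 times siCtrl, 0.335 to 0.542). The site 373 nt upstream of DDX6, an RNA helicase of mRNA decapping, had 218 RPM in siCtrl, 128 in siPAPα, 118 in siPAPγ, 171 in siStar-PAP and 184 in siPAPα+γ, and 227 and 226 RPM in batch 2. It was lower in every KD library set against the first siCtrl, and the ratio in batch 2 was 0.998 (0.887 to 1.12). In siCtrl of batch 2 the sites of GOLPH3 and ZIC5 were the highest, with 568 and 536 RPM (429 and 357 RPM in its siStar-PAP), while neither was listed in the first table. The PYGO2 site ran the other way, with 183 RPM in siCtrl of the first table and 2.52 RPM in siCtrl of batch 2. The levels of some single sites thus differed widely between the batches, which also differ in protocol.

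Upstream antisense reads made up a smaller share of the table in each KD library than in its siCtrl. All comparisons but that of batch 2 use the same siCtrl library. A high share in that library would lower all their ratios, so they are not independent. In the first table they were 0.520% of reads in siCtrl, 0.338% in siPAPα, 0.388% in siPAPγ and 0.382% in siStar-PAP. In the table of the double KD they were 0.610% in siCtrl and 0.532% in siPAPα+γ, and in batch 2 0.987% in siCtrl and 0.669% in siStar-PAP. The share in siStar-PAP was thus 0.735 times that in siCtrl (95% interval 0.725 to 0.745) in the first batch and 0.677 times (0.664 to 0.690) in batch 2. It was 0.650 times (0.642 to 0.658) in siPAPα, 0.747 times (0.736 to 0.757) in siPAPγ and 0.872 times (0.862 to 0.883) in siPAPα+γ. As 1 siCtrl library serves both tables, the 0.520% and 0.610% differ by the sites listed. Over the 1576 sites in both tables, the ratio was 0.631 in siPAPα, 0.723 in siPAPγ and 0.882 in siPAPα+γ. In whole-cell RNA, fewer antisense transcripts in all cells and fewer cells that make them cannot be told apart.

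**Figure D1:**
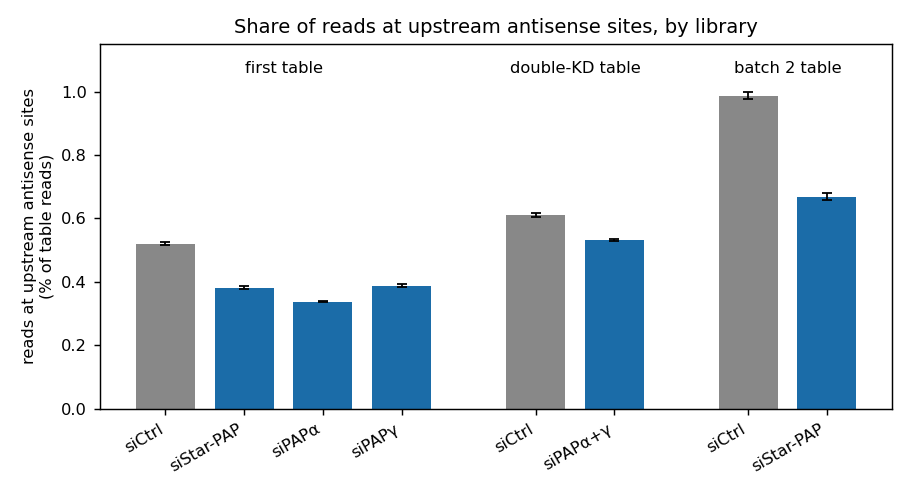
Reads at upstream antisense sites as a percent of all reads of the table (y axis) in each library (x axis), for the 3 tables. Gray bars are siCtrl, blue bars are KD libraries, and error bars are exact 95% binomial intervals, which cover counting error only. Each KD bar is below the siCtrl bar of its table, from 0.338% against 0.520% for siPAPα to 0.532% against 0.610% for siPAPα+γ. The siCtrl bars of the first table and of the double KD are 1 library.

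These shares depend on the scaling. The median change over all PASs with more than 50 reads was not 0 but -0.34 on the log2 scale in siStar-PAP of the first batch, -0.08 in siPAPα, -0.05 in siPAPγ, -0.09 in siPAPα+γ and -0.17 in siStar-PAP of batch 2. With TMM factors of edgeR that median was 0.03, 0.19, 0.08, 0.11 and 0.06 in the same order, nearer to 0 in both siStar-PAP libraries and farther from it in the other 3, and the ratio of upstream antisense reads was 0.783 in siPAPα, 0.812 in siPAPγ, 0.952 in siStar-PAP of the first batch, 0.999 in siPAPα+γ and 0.794 in siStar-PAP of batch 2. Intronic sites, another class of PASs away from the 3′ end, had ratios of 1.04 in siStar-PAP of the first batch and 0.979 in batch 2, and of 0.754 in siPAPα, 0.832 in siPAPγ and 0.720 in siPAPα+γ. The antisense ratio was below the intronic one in both siStar-PAP libraries, in siPAPα and in siPAPγ, and in siPAPα+γ it was above. PASs in upstream exons were also lower, with ratios of 0.766 in siStar-PAP of the first batch and 0.788 in batch 2, 0.816 in siPAPα, 0.912 in siPAPγ and 0.842 in siPAPα+γ. A lower share in siStar-PAP was thus seen in this class too.

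Single sites were then called lower or higher when the share of the table changed by more than 2-fold, with more than 50 reads in the pair of libraries. In siPAPα, 271 of the 2520 sites had enough reads. Of these, 117 were lower and 21 were higher, that is 43.2% and 7.75%, while 21.5% and 16.0% of all PASs tested were lower and higher. The median log2 change of upstream antisense sites was -0.73 (95% interval -0.96 to -0.47), and its difference from the median of all PASs was -0.65. In siPAPγ, 77 of 234 sites were lower and 18 higher (32.9% and 7.69%), against 16.6% and 12.4% of all PASs, and the median was -0.44 (-0.71 to -0.25). Its difference from the median of all PASs was -0.40. In both libraries the share of lower sites was above that of all PASs and the share of higher sites below it. With TMM factors 91 were lower and 33 higher in siPAPα (73.4% of those called were lower in place of 84.8%), against 15.8% and 22.9% of all PASs, and 71 and 20 in siPAPγ, against 13.98% and 15.03%. With each library scaled to its total of PASS reads, 101 were lower and 9 higher in siPAPγ (91.8% in place of 81.1%), against 23.8% and 8.07% of all PASs. Intronic sites had medians of -0.51 in siPAPα and -0.34 in siPAPγ.

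In siPAPα+γ, 91 of 303 sites were lower and 52 were higher (30.03% and 17.2%), against 22.0% and 15.5% of all PASs. The median was -0.28 (-0.48 to -0.07), where that of intronic sites was -0.53. With TMM factors 78 were lower and 64 higher, against 17.9% and 20.4% of all PASs, and the median of -0.08 had an interval from -0.29 to 0.13. With totals of PASS reads 112 were lower and 36 higher (75.7% of those called were lower in place of 63.6%), against 28.6% and 10.7% of all PASs. The difference from the median of all PASs was -0.19. The higher sites made up 17.2% of those tested, close to the 15.5% of all PASs, and 7.75% and 7.69% in the single KDs. The double KD was set against the same siCtrl library as the single KDs, and its table lists other sites, so the difference from them was not tested.

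In siStar-PAP, 86 of 237 sites were lower and 21 higher in the first batch (36.3% and 8.86%), against 25.8% and 8.32% of all PASs. In batch 2, 41 of 113 were lower and 0 higher (36.3%), against 13.3% and 4.69% of all PASs. The medians were -0.61 (-0.78 to -0.39) and -0.56 (-0.82 to -0.36), with -0.21 and -0.02 for intronic sites. With TMM factors, 57 were lower and 35 higher in the first batch (62.0% of those called were lower in place of 80.4%), against 16.0% and 15.3% of all PASs. They were 26 and 1 in batch 2, against 8.87% and 8.56%, and the medians were -0.24 (-0.41 to -0.02) and -0.33 (-0.59 to -0.13). The difference from the median of all PASs was -0.27 in the first batch and -0.39 in batch 2. A scaling factor shifts both medians alike, so this difference cannot change with the scaling.

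**Figure D2:**
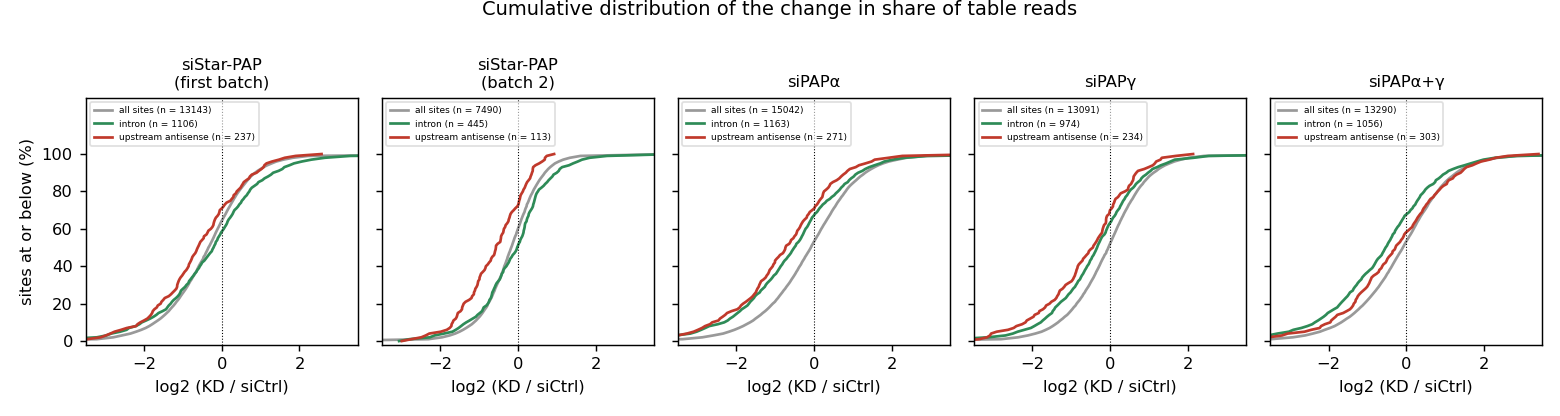
Percent of sites (y axis) with a log2 change, KD over siCtrl in share of table reads with 1 read added (x axis), at or below the given value, in 5 comparisons, for sites with more than 50 reads in the pair. Red lines are upstream antisense sites, green lines intronic sites and gray lines all PASs, with the number of sites in each legend. The red line is left of the gray line at the median in all 5 panels, with a difference of -0.65 in siPAPα and -0.19 in siPAPα+γ, and right of the green line only in siPAPα+γ.

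Only siStar-PAP could be tested over replicates, with both batches in 1 fit of edgeR and batch as a block. It left 1 residual degree of freedom. Of 14101 PASs tested, 341 were upstream antisense sites listed and expressed in both batches. At an adjusted p below 0.05, 5 of them fell and 0 rose, while 1.22% of all PASs tested fell and 1.21% rose. At an unadjusted p below 0.05, 28 of the 341 were lower and 8 higher, against 972 and 926 of the 14101 PASs. The share of lower sites was thus near that of all PASs, and the share of higher sites was below it. DESeq2 called 2, those of VRK2 and SAMD4B, lower and 0 higher (14 and 5 at an unadjusted p below 0.05). Over all PASs it called 88 lower and 138 higher (533 and 721 at an unadjusted p below 0.05). The log2 fold change was below 0 at 213 of the 341 sites and its median was -0.32, against -0.04 over all PASs. Without the block, 0 sites passed in either direction, with 2 lower and 1 higher at an unadjusted p below 0.05.

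The site 3605 nt upstream of VRK2, a serine/threonine kinase, changed most. It had 16.1 RPM in the first siCtrl and 0.179 RPM (2 reads) in its siStar-PAP, and 93.3 and 11.4 RPM in batch 2. It fell by 3.82 on the log2 scale (SE 0.543, adjusted p = 2.16e-06, edgeR). In siPAPα it had 2.15 RPM, in siPAPγ 7.01 and in siPAPα+γ 6.12, so that siCtrl was the highest library in every table, with siStar-PAP the lowest of the first. The site is inside an annotated lncRNA.

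The SAMD4B site, 648 nt upstream of the gene of a Smaug-family translational repressor and at an annotated lncRNA end, had 183 RPM in siCtrl and 42.2 in siStar-PAP, and 226 and 69.0 RPM in batch 2. It fell by 1.62 (SE 0.362, adjusted p = 0.00392, edgeR). It had 20.3 RPM in siPAPα, 38.0 in siPAPγ and 72.4 in siPAPα+γ. All KD libraries were far below siCtrl here, and siPAPα was the lowest.

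The sites of OPN3 and TUBGCP6 had fewer reads in batch 2. The OPN3 site, 1455 nt upstream of the gene of a nonvisual opsin, had 17.9 RPM in siCtrl and 1.88 in siStar-PAP, and 10.8 and 2.96 RPM (30 and 7 reads) in batch 2, and fell by 2.36 (SE 0.686, adjusted p = 0.0404, edgeR). It had 0.739 RPM in siPAPα, 2.64 in siPAPγ and 2.92 in siPAPα+γ. The TUBGCP6 site, 157 nt upstream of the gene of a γ-tubulin complex component, had 89.9 RPM in siCtrl and 20.6 in siStar-PAP, but only 11 and 2 reads in batch 2, and fell by 1.79 (SE 0.526, adjusted p = 0.0432, edgeR). It had 7.82 RPM in siPAPα, 23.3 in siPAPγ and 23.4 in siPAPα+γ. At these 4 sites every KD library was below the siCtrl column of its table. They were picked for a low siStar-PAP, and the other KDs share its first siCtrl library. A high value in that library would lower all these ratios, so the agreement is partly given by the choice.

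No site rose in this fit. Among the higher sites, the 3 with the smallest p were those of HOXC11 (log2 fold change 3.18, adjusted p = 0.154, edgeR), PRH1-PRR4 (1.46, adjusted p = 0.156, edgeR) and SUDS3 (2.60, adjusted p = 0.193, edgeR). The HOXC11 site, at a homeobox gene, is inside the annotated HOTAIR, a lncRNA of the HOXC cluster. It had 2 reads in the first siCtrl and 46 in its siStar-PAP, and 4 and 13 reads in batch 2. The SUDS3 site had 1 and 45 reads in the first table and 12 and 18 in batch 2, so that its difference rests mainly on the first batch.

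Of the 746 sites shared by the first table and batch 2, 120 had more than 20 reads in each pair. The change in siStar-PAP was negative in both batches at 72 of them and positive in both at 17, against 3765 and 1654 of the 8306 PASs of all classes. It was negative in the first batch alone at 11 and in batch 2 alone at 20. The correlation across these sites was 0.38 (Pearson) and 0.34 (Spearman), and over all classes 0.39 and 0.37. The sites share 4 libraries, and genes are not independent replicates. Changes in siPAPα and siPAPγ of the first batch correlated with those in siStar-PAP of batch 2 at 0.32 and 0.42 (Pearson) over 117 and 113 sites. A decrease of more than 1 on the log2 scale in both siStar-PAP libraries was seen at 25 of the 120 sites, against 642 of the 8306 PASs. With siPAPα of the first batch in place of siStar-PAP it was seen at 26 of 117 sites, and both changes were negative at 70. With siPAPγ it was seen at 20 of 113 sites, and both changes were negative at 65. Over all PASs these numbers were 555 and 3113 of 8232 with siPAPα, and 446 and 2988 of 8153 with siPAPγ. At upstream antisense sites the shares were thus close for the matched KD and siPAPα, and lower for siPAPγ. Over all PASs they were highest for the matched KD. These differences were not tested.

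**Figure D3:**
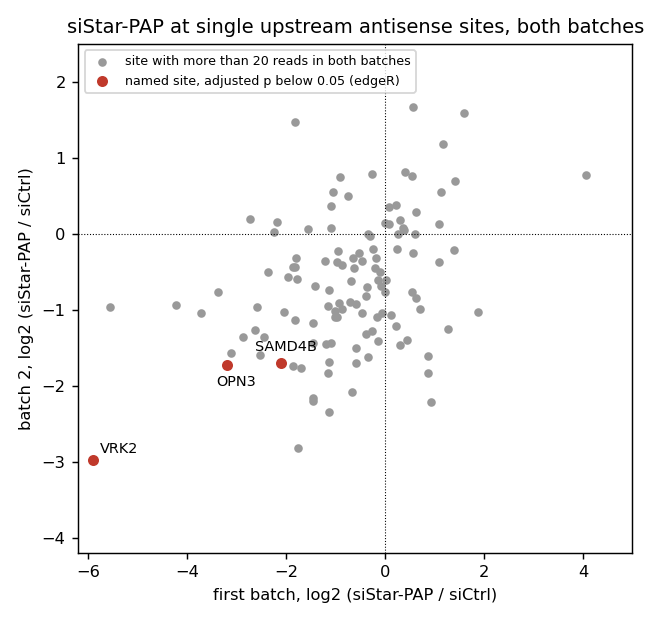
Log2 change, siStar-PAP over siCtrl in share of table reads with 1 read added, in the first batch (x axis) and in batch 2 (y axis) at the 120 upstream antisense sites with more than 20 reads in both. Red points are named sites with an adjusted p below 0.05 in edgeR. That of TUBGCP6 is not drawn as it had 13 reads in batch 2. At 72 sites both changes were below 0, and the VRK2 site is at -5.91 and -2.98.

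The largest changes within single libraries were then listed, 3 in each direction among sites with more than 50 reads, as values without a test. In siPAPα the lowest ratios were at RABGGTB (27.7 RPM in siCtrl and 0.369 in siPAPα, 0.0134 times), OPN3 (0.0413 times) and FOXP1 (0.0421 times). RABGGTB encodes a subunit of Rab geranylgeranyl transferase, and its site, 199 nt upstream, had 3.49 RPM in siStar-PAP, 4.82 in siPAPγ and 1.10 in siPAPα+γ. The highest ratios were at SFMBT1 (1 read in siCtrl and 90 in siPAPα, 44.9 times, interval 7.85 to 1792), ZBTB11 (3 and 82 reads, 13.6 times, 4.50 to 67.4) and MTRNR2L1 (7 and 95 reads, 6.77 times). The last lies at a gene with near-identical mitochondrial and nuclear copies, so its reads are uncertain.

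In siPAPγ the lowest ratios were at SEPT11 (0.0507 times, interval 0.0102 to 0.156, with 3 reads), BRP44L (0.0797 times) and HES4 (0.0891 times). HES4, a Hairy/E(spl)-related repressor, has its site 891 nt upstream, with 29.6 RPM in siCtrl, 2.15 in siPAPα, 2.64 in siPAPγ, 4.84 in siStar-PAP and 3.01 in siPAPα+γ, and 13.7 and 6.77 RPM in batch 2. All KD libraries were below siCtrl. Those set against the first siCtrl share that library, so their agreement is partly given by the choice of the site. The highest ratios were at SRCAP (4.65 times), GLI3 (3.999 times) and ETF1 (3.33 times). SRCAP encodes a chromatin remodeler. Its site had 1.61 RPM in siCtrl, 5.05 in siPAPα, 7.46 in siPAPγ, 5.11 in siStar-PAP and 10.3 in siPAPα+γ. There siCtrl was the lowest, which is partly given by the choice for the same reason.

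In siPAPα+γ the lowest ratios were at RABGGTB (0.0393 times), ACOT7 (0.0440 times, interval 0.00877 to 0.136, with 3 reads) and LIMD2 (0.0498 times). The highest ratios were at OCLN (11.0 times, interval 7.14 to 17.8), ETF1 (7.78 times, 5.20 to 12.1) and CHORDC1 (7.57 times, 3.82 to 17.1). OCLN encodes the tight junction protein occludin, and its site, 1773 nt upstream, had 2.72 RPM in siCtrl, 7.88 in siPAPα, 6.09 in siPAPγ, 6.002 in siStar-PAP and 30.1 in siPAPα+γ. ETF1 encodes the translation release factor eRF1, and its site, 1007 nt upstream, had 3.21 RPM in siCtrl, 14.4 in siPAPα, 10.7 in siPAPγ, 1.70 in siStar-PAP and 25.2 in siPAPα+γ. CHORDC1 encodes an HSP90 co-chaperone, and its site, 2998 nt upstream, had 1.11 RPM in siCtrl, 3.39, 2.99 and 1.88 in siPAPα, siPAPγ and siStar-PAP, and 8.50 in siPAPα+γ. At these 3 sites the double KD was the highest library and both single KDs were above siCtrl. The sites were picked by their ratio in siPAPα+γ, and the single KDs are set against the same siCtrl library. This order is thus partly given by the choice.

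In siStar-PAP of the first batch the lowest ratios were at VRK2 (0.0112 times, interval 0.00134 to 0.0411), SALL1 (0.0687 times) and COPS7A (0.0714 times), and the highest ratios at CIRBP (6.26 times), MSMP (4.27 times) and DNMT3B (4.11 times). The site of SALL1, a zinc finger repressor, had 0.474 times siCtrl in batch 2 (interval 0.279 to 0.782). The COPS7A site, 163 nt upstream of the gene of a COP9 signalosome subunit, had 7.53 RPM in siCtrl and between 0.431 and 0.804 RPM in the KD libraries of the first batch, and 5 and 0 reads in batch 2. The site of CIRBP, a cold-inducible RNA binding protein, is inside the annotated CIRBP-AS1 and was above siCtrl in siStar-PAP alone, with 16 reads in siCtrl, 11 in siPAPα, 11 in siPAPγ, 138 in siStar-PAP and 3 in siPAPα+γ. In batch 2 it had 11 and 6 reads, a ratio of 0.641 (0.195 to 1.89).

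**Figure D4:**
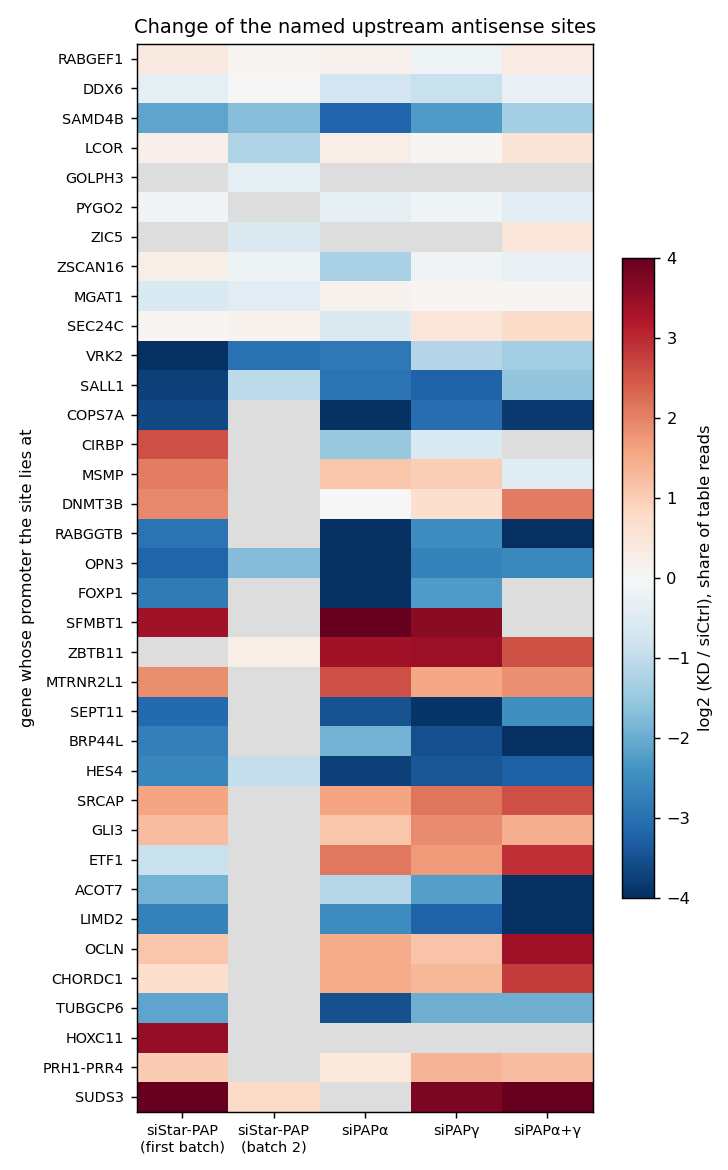
Log2 change, KD over siCtrl in share of table reads with 1 read added (color scale, cut at -4 and 4), of the named upstream antisense sites (rows, by the gene at whose promoter they lie) in the 5 comparisons (columns). Light gray marks a site that was not listed or had 20 reads or fewer in the pair. The SAMD4B and OPN3 rows are blue in all 5 columns, and the OCLN and ETF1 rows are darkest red in siPAPα+γ (3.40 and 2.91).

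Whether antisense reads changed with the gene downstream was asked next, for genes with more than 50 antisense and more than 50 sense reads in the pair. This ratio within a library does not depend on the scaling. The antisense change was below the sense change at 160 of 241 genes in siPAPα (66.4%), with a median difference of -0.77 on the log2 scale (95% interval -0.94 to -0.47). It was below at 130 of 202 genes in siPAPγ (-0.63, -0.84 to -0.40) and at 146 of 265 genes in siPAPα+γ (-0.21, -0.51 to 0.03), where the interval held 0. In siStar-PAP it was below at 119 of 200 genes in the first batch (-0.39, -0.60 to -0.08) and at 57 of 80 in batch 2 (-0.49, -0.74 to -0.14). The antisense and sense changes of a gene hardly moved together, with Pearson correlations between 0.03 and 0.10 across genes that share their libraries. Intervals on medians come from order statistics over sites or genes, which are not replicates.

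Sites within 500 nt of the start had the lowest ratios in siPAPα, siPAPγ and siPAPα+γ, but the ratios did not follow distance throughout. In siPAPα the reads of sites at under 500 nt had 0.433 times the share in siCtrl, those at 500 to under 1000 nt 0.698 times, those at 1000 to under 2000 nt 0.830 times and those at 2000 nt and more 0.667 times. In siPAPγ these were 0.532, 0.743, 0.982 and 0.737, and in siStar-PAP of the first batch 0.572, 0.765, 0.946 and 0.582. The farthest sites were thus below those at 1000 to under 2000 nt in all 3 libraries, and in siStar-PAP as low as the nearest within counting error (0.557 to 0.587 and 0.559 to 0.607). In siPAPα+γ they were 0.581, 0.815, 1.20 and 1.07, so that the near sites were lower and the far sites were not. In batch 2 they were 0.698, 0.679, 0.674 and 0.621, with the nearest sites the highest. Of the sites with enough reads at under 500 nt, 49 of 80 were lower and 4 higher in siPAPα, and 39 of 91 were lower and 7 higher in siPAPα+γ. At 1000 to under 2000 nt these numbers were 11 and 6 of 66 in siPAPα, and 15 and 14 of 73 in siPAPα+γ. At 2000 nt and more they were 17 and 4 of 46 in siPAPα, and 14 and 14 of 50 in siPAPα+γ. Without the 10 sites with the most reads, the ratios at under 500 nt, at 1000 to under 2000 nt and at 2000 nt and more were 0.383, 0.784 and 0.667 in siPAPα, 0.530, 0.818 and 0.737 in siPAPγ, 0.547, 0.989 and 1.03 in siPAPα+γ, and 0.543, 0.730 and 0.582 in siStar-PAP of the first batch.

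GC content around the site moved with distance, and the ratio of pooled reads was lowest at 50% GC and more in all 5 comparisons. In siPAPα the ratio was 0.863 at sites with under 40% GC, 0.633 at 40 to 50% and 0.343 at 50% and more. It was 0.864, 0.797 and 0.454 in siPAPγ, and 1.05, 0.902 and 0.539 in siPAPα+γ. In siStar-PAP it was 0.748, 0.810 and 0.556 in the first batch and 0.684, 0.693 and 0.615 in batch 2. The median log2 change over sites did not follow this order in siStar-PAP of the first batch. It was -0.62, -0.68 and -0.50 in the 3 bins there, least low at 50% GC and more, and -0.43, -0.66 and -0.77 in batch 2. Other PASs shared part of the lower ratio at 50% GC and more. In siPAPα, sites of 3′-most exons had ratios of 1.04, 1.11 and 0.877 in the 3 bins and intronic sites 0.804, 0.646 and 0.582. In siPAPα+γ the intronic sites had 0.723, 0.720 and 0.687. Within sites of 40 to 50% GC, the ratio in siPAPα was 0.366 at under 500 nt and 0.708 at 1000 nt and more, and in siPAPα+γ it was 0.528 and 1.25. Within sites of under 40% GC it was 0.680 and 0.861 in siPAPα, and 0.764 and 1.16 in siPAPα+γ. At 50% GC and more it was 0.368 and 0.455 in siPAPα, and 0.543 and 0.592 in siPAPα+γ. In these KDs the sites at under 500 nt thus had a lower ratio than those at 1000 nt and more within each bin of GC content, although at 50% GC and more the lowest ratios were those at 500 to under 1000 nt (0.270 and 0.517). The part of GC content in the changes was not tested.

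**Figure D5:**
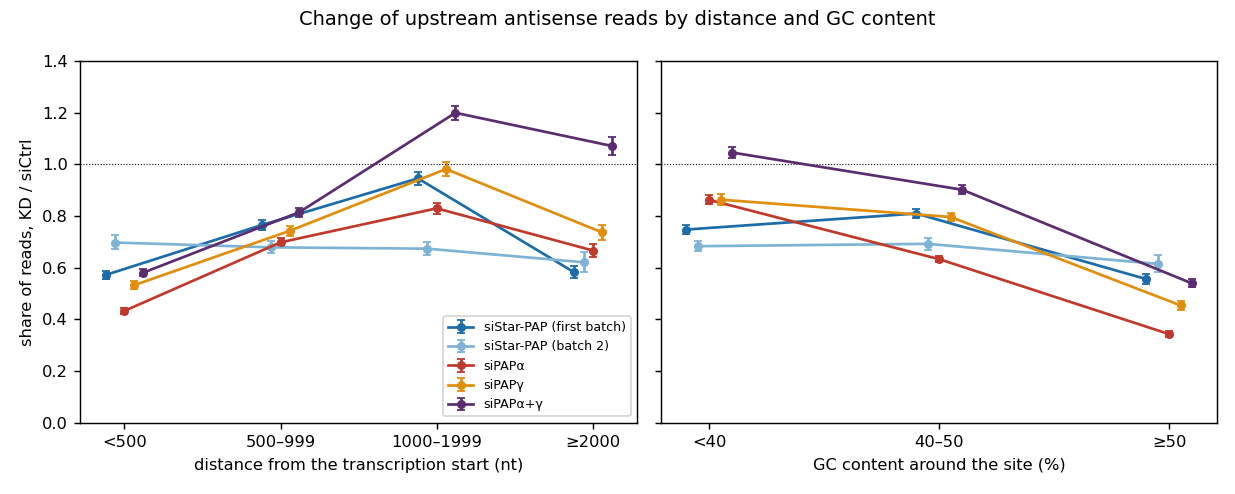
Ratio of the share of upstream antisense reads, KD over siCtrl (y axis), by distance of the site from the transcription start (left, x axis in nt) and by GC content of the 201 nt around it (right, x axis in %). Points are the 5 comparisons, slightly offset, lines join the bins of a comparison, error bars are exact 95% intervals for counting error, and the dotted line marks a ratio of 1. The ratio was lowest at under 500 nt in siPAPα (0.433), siPAPγ, siPAPα+γ and siStar-PAP of the first batch, and lowest at 50% GC and more in all 5. It pools the reads of a bin, and the median over sites in siStar-PAP of the first batch was not lowest at 50% GC and more.

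The sites were also compared by poly(A) signal. In siPAPα the ratio was 0.678 with AATAAA, 0.670 with ATTAAA, 0.586 with a variant and 0.591 with none. In siPAPα+γ it was 0.918, 0.967, 0.799 and 0.661. In siStar-PAP it was 0.700, 0.851, 0.732 and 0.751 in the first batch and 0.665, 0.664, 0.691 and 0.763 in batch 2. Without the 10 sites with the most reads these were 0.524, 0.641, 0.645 and 0.806 in the first batch and 0.621, 0.738, 0.613 and 0.763 in batch 2. In the first batch, 51 of 124 sites with AATAAA were lower and 7 higher, and 9 and 5 of 40 with none, against 25.8% and 8.32% of all PASs. This difference was not tested. The sites with none of the hexamers had the lowest ratio in siPAPα+γ and the highest in batch 2. Sites with none of the hexamers were more common near the start (28.2% at under 500 nt and 14.8% at 2000 nt and more), and their part in the ratios by distance was not tested. In siStar-PAP, sites with the ATA trimer had a ratio of 0.717 in the first batch and 0.727 in batch 2. Those without it had 0.747 and 0.641, so that the order of these ratios differed between the batches. Without the 10 sites with the most reads they were 0.584 with ATA and 0.613 without it in the first batch. In batch 2 they were then 0.655 and 0.652, so that hardly any difference was left. The medians with and without ATA were -0.73 and -0.55 in the first batch and -0.57 and -0.56 in batch 2. Sites at an annotated 3′ end had 0.597 times siCtrl in siStar-PAP of the first batch and other sites 0.796 times. In batch 2 these were 0.665 and 0.685, and in siPAPα 0.618 and 0.664. Sites in no annotated transcript had ratios of 0.798 in siStar-PAP of the first batch, 0.615 in batch 2, 0.717 in siPAPα, 0.805 in siPAPγ and 0.965 in siPAPα+γ.

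The genes of nuclear RNA decay and of tail addition were also looked at through their sense reads, as a list of 28 genes with the exosome subunits, the helicase MTR4 (SKIV2L2) and its adapters, cap-binding proteins, U1 snRNP proteins and the PAPs, the KD targets included. Genes were called by the rule used for sites. In siStar-PAP of the first batch, 10 of 24 genes with enough reads were lower and 0 higher, where 23.4% and 5.05% of all genes tested were lower and higher. The numbers were 6 lower and 1 higher of 25 in siPAPα (18.7% and 10.5% of all genes), 4 and 0 of 24 in siPAPγ (13.3% and 9.24%), 6 and 0 of 24 in siPAPα+γ (18.9% and 11.2%) and 2 and 0 of 22 in batch 2 (12.1% and 3.42%). EXOSC4, a subunit of the exosome core ring, had 3508 reads in siCtrl, 1917 in siPAPα, 1248 in siPAPγ, 3509 in siStar-PAP, and 1643 in siPAPα+γ. Its log2 change was -0.46 in siStar-PAP of the first batch, -1.88 in siPAPα, -1.59 in siPAPγ, -1.54 in siPAPα+γ and -1.27 in batch 2. DIS3, the catalytic subunit of the nuclear exosome, had log2 changes of -2.19 in siStar-PAP of the first batch, -0.53 in siPAPα, -0.65 in siPAPγ, -0.41 in siPAPα+γ and -0.74 in batch 2. The exosome subunits did not move together. EXOSC1 had log2 changes of 0.51, 1.09, 0.57, 0.97 and 0.34 in the same order, and was the gene called higher in siPAPα. EXOSC5 had -0.21, 0.98, 0.08, 0.10 and 0.32. SKIV2L2 was within -0.61 and 0.39 in all 5 comparisons. In edgeR over both batches of siStar-PAP, 0 of 38 sites of 23 of these genes passed in either direction.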

How the data were processed

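The authors mapped 3′READS and 3′READS+ reads to hg19 with Bowtie2, kept unique reads with untemplated Ts, clustered cleavage positions within 24 nt and deposited raw read counts per PAS. The stated minimum, a PAS above 5% of its gene in a library, is met by 91.9% of these sites in the first table, 73.8% in the double KD table and 79.9% in batch 2. Sites were used as listed. The siCtrl and siStar-PAP libraries of a batch share its protocol and the batch is in the labels, so batch was a block. Deviations from the group means correlated at 0.922 over 6990 PASs.

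Samples were grouped by their labels, and 0 columns had no sample. Sites were taken once by position and strand. Shares have exact Clopper-Pearson intervals, and ratios exact conditional binomial ones, at the 95% level. Reads carry no molecular identifiers. 1 read was added before log2. edgeR used its quasi-likelihood test, TMM factors, its default filter and Benjamini-Hochberg adjustment over all PASs; SEs come from its F statistic. Sequence came from GRCh37, annotation from GENCODE release 44 lifted to it. Named sites are the 10 with the most siCtrl reads over the first table and batch 2, the 3 largest rises and falls per first-batch KD among sites with more than 50 reads in the pair and a read in both libraries, and up to 5 per direction that passed edgeR, or the 3 with the smallest p where fewer passed. Of the sites that passed edgeR, 1 is not reported here. Sites and gene lists were chosen with earlier results of these data known. Scripts were tested on simulated data. Alternatives covered scaling (PASS read totals are those stated in the study), filters, fold, added reads, subsets of sites, the block, DESeq2 and each library left out. R 4.3.3, edgeR 4.0.16, DESeq2 1.42.0, Python 3.11.15, scipy 1.17.1 and pandas 2.3.3 were used.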

Additional observations from a re-analysis of the deposited data

How the results depend on the processing

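Of 152 values under other settings, 92 stayed close to those reported, 59 moved and 1 changed direction. Some of the 92 are the reported value itself, as siStar-PAP of the first batch with batch 2 left out is unchanged. With intronic reads as the denominator the ratio in siPAPα+γ was 1.21, and 0.707, 0.863, 0.897 and 0.692 in siStar-PAP, siPAPα, siPAPγ and siStar-PAP of batch 2. In the same order, with siPAPα+γ before batch 2, TMM factors gave ratios of 0.952, 0.783, 0.812, 0.999 and 0.794, and without the 10 sites with the most reads they were 0.600, 0.543, 0.660, 0.776 and 0.654. PASS read totals gave 0.699, 0.594, 0.620 and 0.723 in the first 4, and without sites at an annotated 3′ end they were 0.796, 0.664, 0.765 and 0.884. Over sites in all 3 tables they were 0.667 in siPAPα and 0.926 in siPAPα+γ. The number of lower sites was 203, 241, 180, 216 and 110 with more than 20 reads, 55, 63, 42, 54 and 21 with more than 100 reads, and 27, 47, 32, 30 and 6 for more than 4-fold. In siStar-PAP of the first batch, 516, 128 and 237 sites were tested, with 74, 8 and 3 higher. In siPAPα, 569, 151 and 271 were tested, with 73, 11 and 6 higher. Shares of all PASs under these filters are not given here, so these counts are no result about the class. In siStar-PAP of the first batch, 57 of 237 sites were lower with TMM or DESeq2 factors, against 16.0% and 15.9% of all PASs. In batch 2, 26 of 113 were lower with TMM factors, against 8.87% of all PASs. The median was -0.24 (TMM) and -0.23 (DESeq2) in siStar-PAP of the first batch, -0.47 (TMM) in siPAPα, -0.55 (PASS totals) and -0.052 (DESeq2) in siPAPα+γ, and -0.33 (TMM) in batch 2. The antisense change less the sense change in siStar-PAP of the first batch was -0.65 with more than 100 reads. With either batch left out, the siStar-PAP values were those of the other batch as reported above, with ratios of 0.677 and 0.735 and 41 and 86 lower sites. They are thus no further check. The TMM ratios and those without sites at an annotated 3′ end were chosen after seeing the data. The cause of these moves was not tested.

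In edgeR, 5 sites fell with batch as the replicate block and 0 without the block. With the block, RLE factors gave 3, DESeq2 2 and matching of sites within 24 nt 2. With each library left out in turn the fit had no block, and it called 0 sites each time. The lone library was there assumed to vary like the other group.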

Other observations

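Genes with more than 1 upstream antisense site, each with at least 10 reads, were compared within the promoter. In siPAPα+γ the distal site gained on the proximal one at 58 of 95 genes, with a median of 0.32 on the log2 scale (95% interval 0.03 to 0.92). The numbers were 45 of 78 in siPAPα (0.59, -0.57 to 1.10), 32 of 64 in siPAPγ (0.02, -0.46 to 0.43), and 33 of 69 and 14 of 26 in siStar-PAP of the first batch and batch 2 (-0.04 and 0.24), where the intervals held 0. These genes, chosen after their values were seen, show both directions in siPAPα+γ. At DAXX, which encodes a histone chaperone, the site at 414 nt had 14 reads in siCtrl and 0 in siPAPα+γ, which allows up to 3, and that at 631 nt had 31 and 141. At C12orf57 the site at 153 nt had 175 and 14 reads and that at 306 nt 21 and 61. At TUBB6, a tubulin gene, the site at 485 nt had 748 and 543 reads and that at 550 nt 24 and 0.

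Sites at promoters of zinc finger genes, 119 in the first table, had ratios of 0.514 in siPAPα, 0.582 in siPAPγ and 0.659 in siStar-PAP, 0.766 in siPAPα+γ and 0.561 in batch 2. At promoters of histone and immediate early genes no site had enough reads in any comparison.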
